A study of Mus musculus with 12 samples.

Results

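The 10 genes described here are 5 members of the CCN family (Ccn1 to Ccn5), the matricellular or matrix genes Tnc, Postn, Thbs1 and Fn1, and Ankrd1, followed across all 12 samples of the series. They are 10 of the 19938 genes measured, each read by 1 probe set assigned to that gene alone. The set was selected on the measured difference, between the 2 genotypes, in how Ccn1, Ccn2 and Tnc answered adipogenic differentiation. The difference between the responses is therefore given for all 10 genes as a description with no test, and the separate contrasts of those 3 genes are given likewise. What was tested is the response averaged over both genotypes and the genotype difference averaged over both states. In this balanced design these are uncorrelated with the difference that chose the genes only if the 4 groups vary alike. The median SD of the members ran from 0.04 in D1D2KO undifferentiated to 0.21 in WT differentiated samples. The fit also used 1 shared estimate of the spread, so these tests are not free of the choice. The single contrasts were tested in the other 7 members.

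The cells were fibroblasts taken from C57BL6 mouse embryos at embryonic day 14, in 4 groups of 3 samples: WT and D1D2KO cells, each undifferentiated and differentiated. D1D2KO is read here as cells deficient in DGAT1 and DGAT2, the enzymes of the last step of triacylglycerol synthesis, from the title of the series. How the alleles were made is not given in the sources used here. Differentiated cells of both genotypes had received dexamethasone (1 µM), isobutylmethylxanthine (500 µM), insulin (5 µg/ml) and troglitazone (15 µM) after confluence, then insulin with troglitazone, then plain medium. All cells were grown in medium with fetal bovine serum, which itself contains fibronectin and growth factors as protein. The 3 samples of a group are described as biological replicates, but the embryo or culture behind each is not named. A p-value therefore covers no more than the variation among these 12 samples.

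Signals are on the log2 scale of the array, where a difference of 1 is a doubling, and the probe sets of different genes are not compared with each other. The targeted genes were lower in every D1D2KO sample than in any WT sample of the same state. The differences averaged over the states were -1.37 for Dgat1 and -1.07 for Dgat2 (limma, adjusted p = 3.57e-09 and 6.92e-07). Both still rose with differentiation in D1D2KO cells, from 5.56 to 5.66 up to 7.75 to 8.26 for Dgat1 and from 5.44 to 5.51 up to 8.37 to 8.66 for Dgat2, and whether their probe sets lie within the deleted parts is not given. The 8 measured adipocyte markers averaged 6.10 to 6.20 in WT undifferentiated and 5.84 to 5.91 in D1D2KO undifferentiated samples, against 10.67 to 10.79 and 10.94 to 11.18 after differentiation. The 10 fibroblast markers averaged 11.10 to 11.14 and 11.10 to 11.13 before, and 10.55 to 10.60 and 10.16 to 10.29 after. Differentiated cultures thus carried adipocyte markers while still giving strong fibroblast signals. In bulk RNA such as this, fewer cells of a type and less RNA per cell cannot be told apart.

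Matricellular proteins are secreted into the matrix, where they change how cells read it rather than bearing load. CCN proteins are built from modules shared by the family, bind integrins and growth factors, and shape adhesion and fibrosis. CCN5 lacks the carboxy-terminal module of its relatives. Ccn1, Ccn2 and Ankrd1 are standard readouts of YAP and TAZ, co-activators that are switched on by spread, tensed cells and reach DNA through TEAD factors, whereas SRF with its MRTF partners answers to the state of the actin cytoskeleton. Fibroblasts lose stress fibres and much of their fibrous matrix as they round up into adipocytes.

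Of the 4 members with a promoter entry, Ccn1 and Ankrd1 are shown because they held a core TEAD motif, and Tnc because it is one of the genes that chose the set. The sequences are the 250 bases before the RefSeq start, on the strand of the gene and on build GRCm38.p6, with the core TEAD motif in capitals (GGAATG, or CATTCC where it lies on the other strand).
Ccn1 (chr3:145649986-145650235, minus strand): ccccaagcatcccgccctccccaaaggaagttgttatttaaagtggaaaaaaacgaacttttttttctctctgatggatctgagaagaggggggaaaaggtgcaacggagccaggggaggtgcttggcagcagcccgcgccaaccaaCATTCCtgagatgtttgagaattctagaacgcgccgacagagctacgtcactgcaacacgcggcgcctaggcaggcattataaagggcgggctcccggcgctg
Ankrd1 (chr19:36119845-36120094, minus strand): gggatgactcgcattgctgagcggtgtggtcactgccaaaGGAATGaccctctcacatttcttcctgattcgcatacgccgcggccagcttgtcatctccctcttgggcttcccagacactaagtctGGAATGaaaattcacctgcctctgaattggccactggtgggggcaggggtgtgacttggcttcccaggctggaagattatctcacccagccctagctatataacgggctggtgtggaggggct
Tnc (chr4:64047016-64047265, minus strand): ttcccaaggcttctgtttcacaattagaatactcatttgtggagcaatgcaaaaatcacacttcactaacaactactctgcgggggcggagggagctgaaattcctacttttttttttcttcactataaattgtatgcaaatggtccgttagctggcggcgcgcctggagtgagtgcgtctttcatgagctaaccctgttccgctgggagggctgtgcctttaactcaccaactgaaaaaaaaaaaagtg

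The Ccn1 sequence held 1 core TEAD motif, from 103 to 98 bases before the start, and that of Ankrd1 held 2, from 210 to 205 and from 123 to 118 bases before it. The first of the 2 Tnc starts listed, printed above, and the second held none, nor did the 2 starts of Postn. Over all 32851 promoters of that length 12.6% held the motif on either strand. The CArG box, which SRF binds, and the AP-1 motif TGANTCA were searched on both strands as well and were found in none of these 6 sequences, against 1.47% and 6.75% of all promoters. The table matched 4 of the 10 members. Ccn2, Ccn3, Ccn4, Ccn5, Thbs1 and Fn1 had no entry of the length kept under these symbols, and older gene names were not searched. A match of letters is a description and no evidence of binding.

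All 10 genes fell with differentiation when the response was averaged over the genotypes, against 25.3% of all genes called lower (limma, Benjamini-Hochberg adjusted p under 0.05 over 19938 genes). Their median difference was -0.76, and that of all genes was 0.02. Averaged over the states, 9 of the 10 were lower in D1D2KO than in WT cells, against 12.3% of all genes called lower, with Ccn3 as the exception. The count was 6 after quantile normalization, where Ccn5, Postn and Fn1 were lost (adjusted p = 0.212, 0.0957 and 0.0533), and 7 to 9 when a sample was left out. The median of the 10 was -0.33 and that of all genes 0.02. Both counts describe genes that were chosen with results of these data known.

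**Figure D1:**
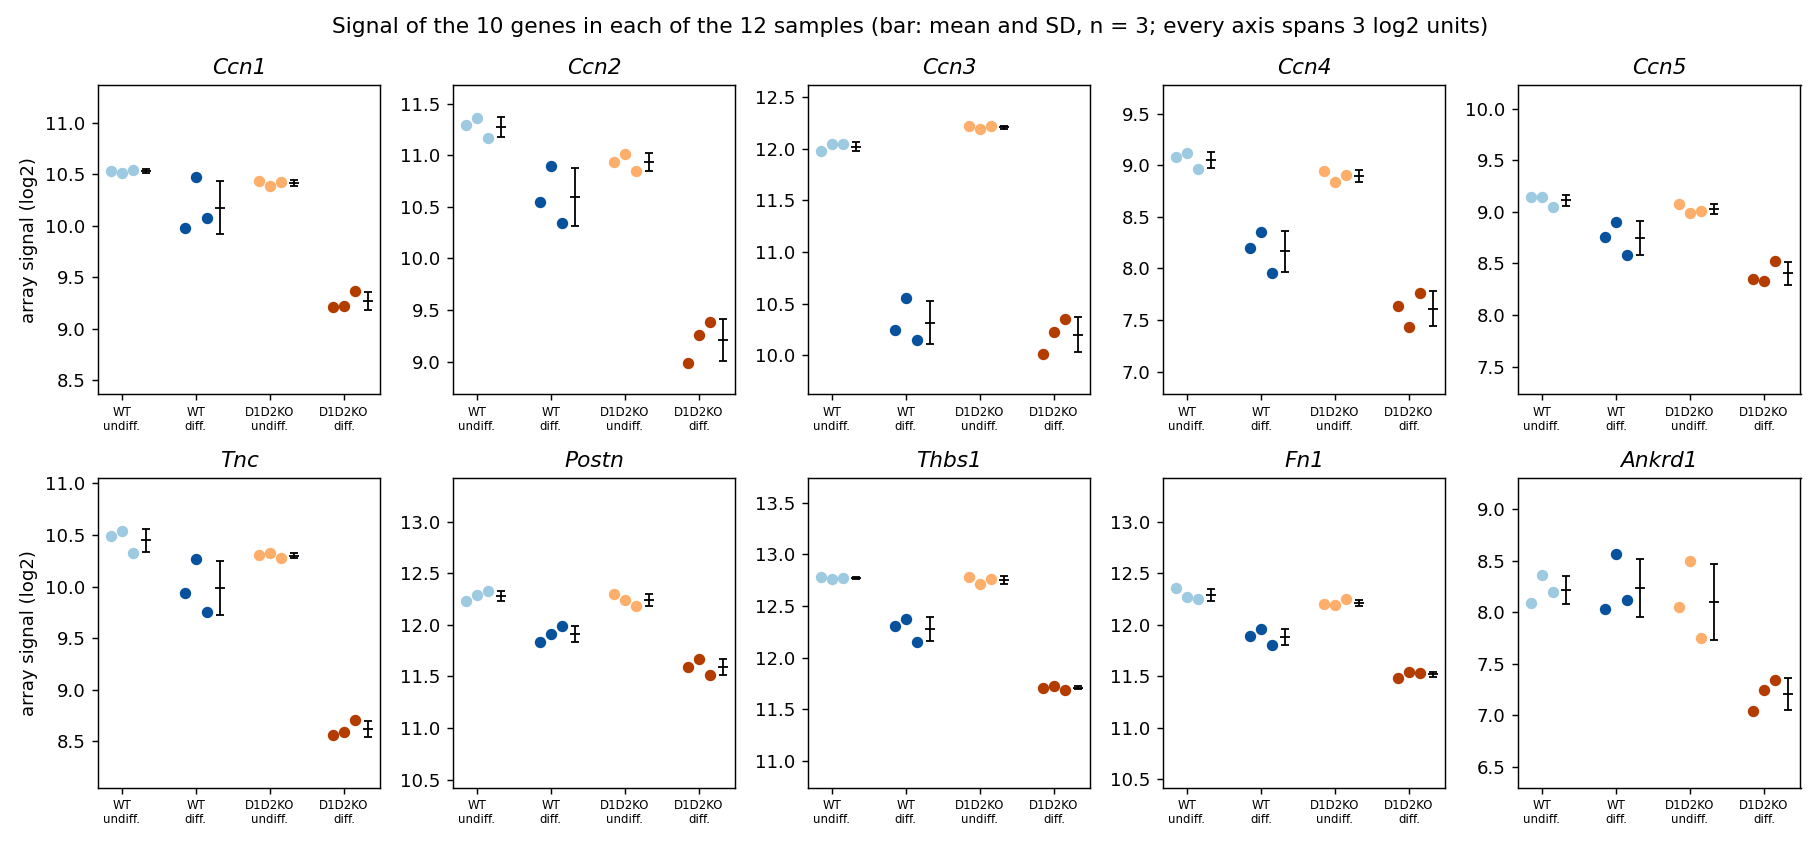
Array signal (log2) of each of the 10 genes, 1 panel a gene, with a point for each sample of the 4 groups and a bar for the group mean and SD (n = 3). In 9 of 10 panels the D1D2KO differentiated points lie below all WT differentiated points, the exception being Ccn3, and WT differentiated replicate 2 is the highest point of its group in 9 of 10.

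Ccn1, a secreted ligand of integrins that promotes adhesion, stood at 10.53, 10.51 and 10.54 in WT undifferentiated and at 10.44, 10.39 and 10.43 in D1D2KO undifferentiated samples. After differentiation it stood at 9.98, 10.47 and 10.08 in WT and at 9.22, 9.23 and 9.37 in D1D2KO samples. The D1D2KO differentiated samples were the lowest of the 12, while WT differentiated replicate 2 lay above the D1D2KO undifferentiated samples and just under the WT ones. The fitted response was -0.35 (SE 0.10) in WT and -1.15 (SE 0.10) in D1D2KO cells, a loss of 21.7% and 54.8% of the signal. Averaged over the genotypes, Ccn1 fell by 0.75 (SE 0.07; limma, adjusted p = 1.77e-07), and its genotype difference averaged over the states was -0.51 (SE 0.07; adjusted p = 0.00023). That average joined -0.11 (SE 0.10) before and -0.91 (SE 0.10) after differentiation. Ccn1 helped to choose the set, so these 2 tests are not free of the choice. The same holds for the tests of Ccn2 and Tnc below. Without WT differentiated replicate 2 the WT response was -0.50 and the difference between responses moved from -0.79 (SE 0.15) to -0.64.

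Ccn2, the connective tissue growth factor of fibrotic matrix, stood at 11.30, 11.36 and 11.17 in WT undifferentiated and at 10.94, 11.02 and 10.84 in D1D2KO undifferentiated samples. It stood at 10.55, 10.89 and 10.34 in WT differentiated and at 8.99, 9.26 and 9.38 in D1D2KO differentiated samples. The D1D2KO samples lay under the WT samples in both states, and the gap was wider after differentiation, at -1.38 (SE 0.13) against -0.34 (SE 0.13). Differentiation took 37.6% of the signal in WT and 69.7% in D1D2KO cells. Averaged over the genotypes it fell by 1.20 (SE 0.09; limma, adjusted p = 4.62e-09), and its mean genotype difference was -0.86 (SE 0.09; adjusted p = 6.58e-06).

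Tnc encodes tenascin-C, a matricellular protein of wounds and embryonic connective tissue that loosens adhesion to fibronectin. It stood at 10.49, 10.53 and 10.32 in WT undifferentiated and at 10.31, 10.32 and 10.27 in D1D2KO undifferentiated samples. After differentiation the signals were 9.93, 10.26 and 9.75 in WT and 8.56, 8.59 and 8.71 in D1D2KO samples. The D1D2KO differentiated samples lay far under the other 9. In both states D1D2KO samples were under WT samples, but before differentiation only just (highest D1D2KO 10.321, lowest WT 10.323). The genotype difference was -0.15 (SE 0.11) before and -1.37 (SE 0.11) after differentiation, which left 38.8% of the WT signal. The difference between responses, -1.22 (SE 0.15), was the most negative of the 10. The mean differentiation response was -1.07 (SE 0.08; limma, adjusted p = 2.95e-09) and the mean genotype difference -0.76 (SE 0.08; adjusted p = 5.58e-06).

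Among the 7 members that were not picked for their response, 6 fell with differentiation in WT cells, where 19.4% of all genes were called lower, and 7 fell in D1D2KO cells, where 21.2% were. Before differentiation 0 of the 7 differed between the genotypes, with 0 at an unadjusted p under 0.05 as well, where 8.02% of all genes were called in either direction by limma and 3.62% called lower. After differentiation 6 of the 7 were lower in D1D2KO cells, against 7.42% of all genes. Cell type markers moved with the genotype there as well. All 10 fibroblast markers had a lower mean in D1D2KO than in WT differentiated samples, and their average was 10.16 to 10.29 against 10.55 to 10.60. All 8 adipocyte markers had a higher mean, with an average of 10.94 to 11.18 against 10.67 to 10.79. The part of these markers in the members' differences was not tested. Over all 10 genes the D1D2KO samples lay under every WT sample in 5 before differentiation and in 9 after it, patterns that 19.6% and 14.2% of all genes showed. Without Ccn1, Ccn2 and Tnc, which chose the set, this held for 2 of 7 members before differentiation and 6 of 7 after it. Before differentiation the lowest WT signal barely exceeded the highest D1D2KO signal for Tnc (10.323 against 10.321) and Fn1 (12.2456 against 12.2455). The differentiated samples lay under every undifferentiated one in 9 of 10 in WT and in 10 of 10 in D1D2KO cells, against 24.0% and 26.6% of all genes. These single contrasts share samples with the difference that chose Ccn1, Ccn2 and Tnc.

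Ccn3, a CCN protein linked to growth arrest, had the largest fall of the 10, and its mean genotype difference of 0.04 (SE 0.07; limma, adjusted p = 0.733) was the one that did not pass. It stood at 11.98, 12.04 and 12.05 in WT undifferentiated and at 12.22, 12.19 and 12.22 in D1D2KO undifferentiated samples. It stood at 10.24, 10.55 and 10.15 in WT and 10.02, 10.23 and 10.35 in D1D2KO samples after differentiation. The D1D2KO samples were thus above WT before differentiation and overlapped with WT after it. The fall was -1.71 (SE 0.10; limma, adjusted p = 1.16e-09) in WT and -2.01 (SE 0.10; adjusted p = 9.68e-11) in D1D2KO cells, 69.3% and 75.2% of the signal. The genotype differences of 0.19 before and -0.12 after did not pass the test (adjusted p = 0.249 and 0.453).

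Ccn4 and Ccn5 were first found as genes induced by Wnt signalling, which restrains adipogenesis. Ccn4 stood at 8.97 to 9.12 in WT undifferentiated, 8.83 to 8.94 in D1D2KO undifferentiated, 7.95 to 8.35 in WT differentiated and 7.43 to 7.76 in D1D2KO differentiated samples. Its response was -0.89 in WT and -1.29 in D1D2KO cells (SE 0.10 each; limma, adjusted p = 3.57e-06 and 2.76e-08), and differentiated D1D2KO cells kept 68.0% of the WT signal (adjusted p = 0.00263). For Ccn4 the D1D2KO samples lay below WT in both states, although the difference before differentiation, -0.16, did not pass (adjusted p = 0.337). Ccn5 stood at 9.05 to 9.15 in WT and 8.99 to 9.08 in D1D2KO undifferentiated samples, and at 8.58 to 8.91 and 8.33 to 8.53 in differentiated ones. Its response was -0.37 in WT and -0.62 in D1D2KO cells (SE 0.09 each; limma, adjusted p = 0.00439 and 2.67e-05). Its genotype difference after differentiation, -0.34 (SE 0.09; adjusted p = 0.0216), was lost without WT differentiated replicate 2 (adjusted p = 0.0939) or D1D2KO differentiated replicate 1 or 2 (0.0632 and 0.0698). It was also lost after quantile normalization (0.0902) and when only the 2 groups compared were fitted (0.0821).

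Thbs1 encodes thrombospondin-1, which binds the receptors CD36 and CD47 and can activate latent TGF-beta. It stood at 12.78, 12.76 and 12.77 in WT undifferentiated and 12.78, 12.71 and 12.76 in D1D2KO undifferentiated samples. After differentiation it stood at 12.31, 12.37 and 12.15 in WT and at 11.71, 11.72 and 11.69 in D1D2KO samples. Before differentiation the genotypes overlapped, with a difference of -0.02 (SE 0.08; limma, adjusted p = 0.901), and after it they were apart by -0.57 (SE 0.08; adjusted p = 0.000149). The fall was 28.9% of the signal in WT and 51.5% in D1D2KO cells.

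Postn, which encodes the collagen-binding periostin, and Fn1, which encodes the adhesive matrix protein fibronectin, moved less. Postn stood at 12.23 to 12.33 and 12.18 to 12.30 in WT and D1D2KO undifferentiated samples, and at 11.84 to 11.99 and 11.51 to 11.67 after differentiation. Fn1 stood at 12.25 to 12.36 and 12.19 to 12.25 before, and at 11.80 to 11.96 and 11.48 to 11.54 after. Before differentiation the genotypes overlapped for Postn, and for Fn1 the lowest WT signal (12.2456) was just above the highest D1D2KO signal (12.2455). After differentiation the genotypes were separate in both genes. The response of Postn was -0.37 in WT and -0.65 in D1D2KO cells, and that of Fn1 -0.41 and -0.70 (limma, adjusted p from 8.07e-07 to 0.00116). The genotype difference after differentiation was -0.32 (SE 0.08; adjusted p = 0.0133) for Postn and -0.36 (SE 0.07; adjusted p = 0.00493) for Fn1. That of Postn was not called when only the 2 groups compared were fitted (adjusted p = 0.0664). The lowest percentile among all genes that a sample gave was 99.61 for Postn, 99.68 for Thbs1 and 99.55 for Fn1, so these were among the strongest signals measured.

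Ankrd1, a nuclear and sarcomeric ankyrin-repeat protein that is not secreted, showed no change in WT cells that passed the test. It stood at 8.09, 8.36 and 8.19 before and at 8.03, 8.56 and 8.12 after differentiation, a difference of 0.02 (SE 0.16; limma, adjusted p = 0.946). In D1D2KO cells it went from 8.05, 8.49 and 7.75 to 7.04, 7.25 and 7.34, a response of -0.89 (SE 0.16; adjusted p = 0.000259). The WT groups overlapped throughout, while the D1D2KO differentiated samples lay under all 9 others. After differentiation D1D2KO cells held 49.1% of the WT signal (adjusted p = 0.000598). D1D2KO undifferentiated samples had an SD of 0.37, the widest of any group and member. Ankrd1 is best known from heart and skeletal muscle, and the 7 markers of those tissues averaged 5.92 to 5.94 and 5.65 to 5.80 in WT and 6.45 to 6.53 and 6.24 to 6.29 in D1D2KO samples, before and after differentiation. Their average was higher in D1D2KO cells, but not every marker was: cardiac troponin Tnnt2 had means of 9.22 in WT and 8.59 in D1D2KO undifferentiated samples. After differentiation all 7 had a higher mean in D1D2KO samples. The part of these genes in the Ankrd1 signal was not tested.

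In the mean over the genotypes, the response of these 7 genes ran from -1.86 (SE 0.07) for Ccn3 to -0.43 (SE 0.11) for Ankrd1 (limma, adjusted p from 1.47e-12 to 0.00457). Between these lay Ccn4 at -1.09 (SE 0.07) and Thbs1 at -0.77 (SE 0.05). The mean response shares samples with the difference that chose the set. The mean genotype difference was -0.57 (SE 0.11; adjusted p = 0.00263) for Ankrd1, -0.36 (SE 0.07; adjusted p = 0.00328) for Ccn4 and -0.29 (SE 0.05; adjusted p = 0.00159) for Thbs1. It was smaller for Fn1 (-0.22, SE 0.05; adjusted p = 0.00719), Ccn5 (-0.21, SE 0.06; adjusted p = 0.0214) and Postn (-0.18, SE 0.06; adjusted p = 0.0227). The calls of Ccn5 and Postn were lost without WT undifferentiated replicate 2 (adjusted p = 0.0506 for both), and that of Postn also without D1D2KO undifferentiated replicate 3 (0.0611). Quantile normalization ended the calls of Fn1 (-0.15), Ccn5 (-0.12) and Postn (-0.12).

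**Figure D2:**
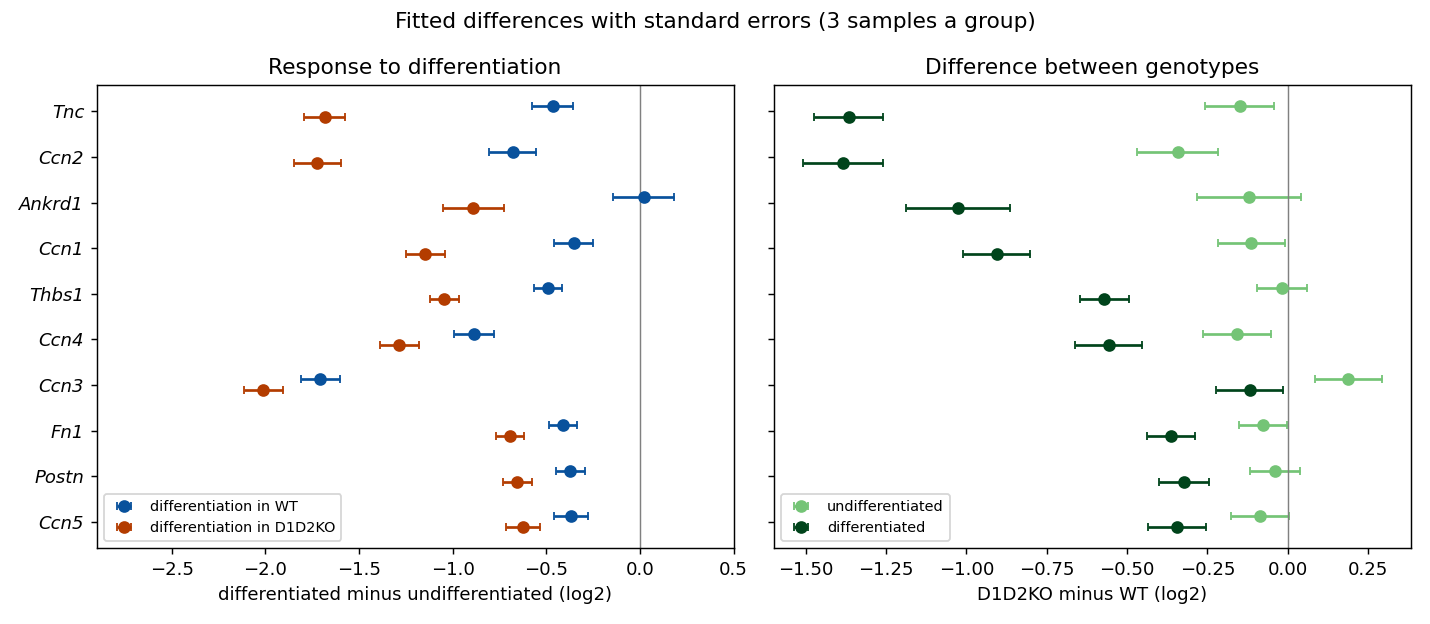
Fitted log2 differences with standard errors for the 10 genes, ordered by the difference between responses: on the left differentiated minus undifferentiated in each genotype, on the right D1D2KO minus WT in each state. The D1D2KO response lies left of the WT response for all 10 genes, from -0.26 for Ccn5 to -1.22 for Tnc. By arithmetic this is the same as every genotype difference being more negative after differentiation than before.

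Ordered by the difference between responses, the genes ran from Tnc (-1.22, SE 0.15) and Ccn2 (-1.04, SE 0.18) through Ankrd1 (-0.91, SE 0.23), Ccn1 (-0.79, SE 0.15) and Thbs1 (-0.55, SE 0.11) to Ccn4 (-0.40, SE 0.15). Ccn3 (-0.31, SE 0.15), Fn1 (-0.29, SE 0.11), Postn (-0.28, SE 0.11) and Ccn5 (-0.26, SE 0.13) followed. Each gene differed from its neighbours in this order by less than the sum of their standard errors. All 10 values were negative, with a median of -0.48 against -0.01 for all genes. In this contrast 0.712% of all genes were called lower and 1.46% in either direction. The order was not that of the response itself, since Ccn3 fell most in both genotypes.

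WT differentiated replicate 2 was the highest of its group in 9 of 10 members, by 0.20 above the group mean on average. Its adipocyte markers averaged 10.67 against 10.68 and 10.79 in the other 2 samples, its smooth muscle markers 9.21 against 9.05 and 9.01, and its Dgat2 signal was 9.86 against 10.28 and 10.53. The part of these in the members' signals was not tested. Without this sample the median difference between responses was -0.41, with -0.89 for Ccn2, -1.08 for Tnc and -0.75 for Ankrd1. The median SD of the members was 0.21 in WT differentiated samples, against 0.12 for all genes there and 0.06 for the members in WT undifferentiated samples.

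The genes with the profile most like the picked ones over the 12 samples were found by the root mean square difference of the 12 values, each gene centred on its own mean. For Ccn1 these were Flnc (0.12), Runx1, Samd9l, Tgfb1i1 and Palld (0.13). For Ccn2 they were Tpm1 (0.16), Pgm5, Lsp1, Inhba and Il13ra1 (0.19), and for Tnc they were Tpm1 (0.13), Inhba, Actn1, Il13ra1 and Tagln (0.19). Tpm1, a tropomyosin, Inhba, a subunit of activin and inhibin, and Il13ra1, a chain of the interleukin-13 receptor, were found for both Ccn2 and Tnc, which were also each other's closest members. Their difference was 0.11, and the closest member to Ccn1 was Thbs1, at 0.16.

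Wider lists placed the members among genes of their pathways. Of 25 other matricellular genes measured, 17 fell and 5 rose in the mean differentiation response (median -0.49), against 25.3% and 20.6% of all genes. Smoc2, a SPARC-related calcium-binding protein, changed by -2.29 and the thrombospondin Thbs2 by -1.58 (limma, adjusted p = 1.87e-14 and 4.38e-13), while the related Smoc1 rose by 1.60 (adjusted p = 1.53e-11). Tnxb (-0.01) and Ccn6, another CCN family gene (0.14), did not pass, although without WT differentiated replicate 2 Ccn6 did (0.23, adjusted p = 0.0215). In differentiated cells 9 of the 25 were lower in D1D2KO and 0 were higher, against 7.42% and 6.25% of all genes. This was not particular to the list. Of the lists described below, 19 of 21 SRF and MRTF targets and 9 of 18 TGF-beta genes were called lower there. So were 8 of 19 YAP and TAZ targets, 7 of 18 receptors and 1 of 16 Hippo genes. Called higher were 1 YAP and TAZ target and 2 receptors. Responses differed between the genotypes for 2 of the 25, against 1.46% of all genes. These were the integrin ligand Edil3 (-0.70, SE 0.12, limma adjusted p = 0.00559) and fibulin-2, Fbln2 (-0.61, SE 0.12, adjusted p = 0.0125).

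Of 19 other YAP and TAZ target genes 13 fell and 2 rose (median -0.60), against 25.3% and 20.6% of all genes. The transmembrane BMP-binding protein Crim1 (-0.95) and the membrane repair protein Myof (-0.89) fell most, and the ectonucleotidase Nt5e rose by 1.06 (limma, adjusted p from 6.51e-10 to 4.20e-08), whereas Amotl2 (0.00) and Ccdc80 (0.02) did not pass. The responses of 2 of the 19 differed, against 1.46% of all genes. These were Crim1 (-0.62, SE 0.12, limma adjusted p = 0.0151) and the receptor kinase Axl (-0.52, SE 0.11, adjusted p = 0.0319). The call of Axl was lost without WT undifferentiated replicate 2 or 3, WT differentiated replicate 1, any 1 of the D1D2KO undifferentiated samples or D1D2KO differentiated replicate 1, with adjusted p from 0.0568 to 0.0887. Of 16 Hippo pathway components and TEAD factors 11 fell and 1 rose (median -0.36), against the same 25.3% and 20.6%. The largest falls were those of the angiomotin gene Amot (-0.66), the kinase gene Stk4 (-0.56) and Vgll3 (-0.55), a TEAD cofactor. Vgll4 (0.10) and Amotl1 (0.08) did not pass. In this list limma called 0 differences between responses, with 2 at an unadjusted p under 0.05, where 1.46% of all genes were called. TAZ (Wwtr1, -0.08) and Tead1 (-0.14) were among the uncalled. So was Vgll3 at -0.69 (limma, adjusted p = 0.0723), with responses of -0.21 in WT and -0.90 in D1D2KO cells.

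The SRF and MRTF target genes fell in 21 of 21 cases in the mean response (median -0.74), against 25.3% of all genes. The largest falls were those of the myosin light chain Myl9 (-1.45), the calponin Cnn2 (-1.21) and the filamin Flna (-1.02) (limma, adjusted p from 7.02e-12 to 8.42e-10). Responses differed between the genotypes in 11 of the 21 genes, all more negative in D1D2KO cells, against 0.712% of all genes. The enteric actin Actg2 (-0.90, SE 0.15; adjusted p = 0.00584), Myl9 (-0.88, SE 0.13; adjusted p = 0.00271) and Tpm1 (-0.79, SE 0.13; adjusted p = 0.0066) led them, while vinculin, Vcl (-0.27), and Flna (-0.34) did not pass. The 11 calls became 7 without WT undifferentiated replicate 1 or 3, D1D2KO undifferentiated replicate 2 or D1D2KO differentiated replicate 1. The list was chosen with earlier results of these data known, and this count was followed only after it was seen. Of these 21 genes 9 were already lower in undifferentiated D1D2KO cells, among them Myl9 (-0.91) and Actg2 (-1.48), against 3.62% of all genes. The list shares Acta2, Tagln, Cnn1 and Lmod1 with the smooth muscle and myofibroblast markers, 7 genes that averaged 9.37 to 9.49 in WT and 8.18 to 8.45 in D1D2KO undifferentiated samples, and 9.01 to 9.21 and 7.54 to 7.63 in differentiated ones. These markers were lower in D1D2KO cells in both states, and their part in the members' signals was not tested.

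**Figure D3:**
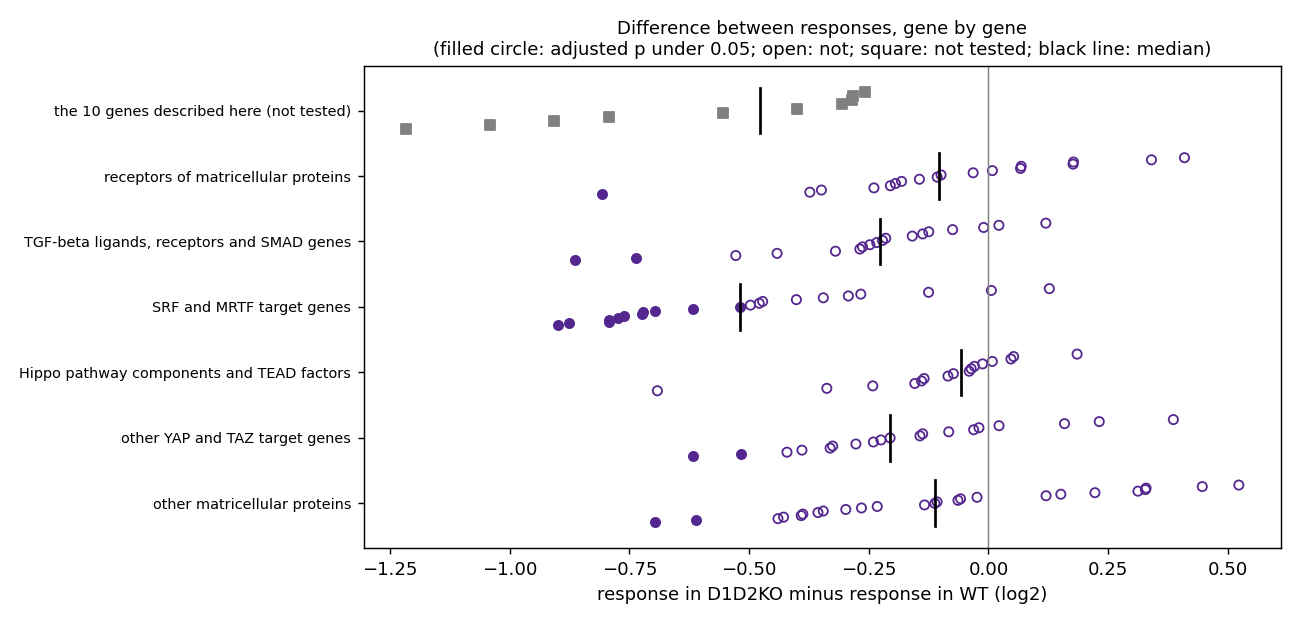
Difference between responses (D1D2KO minus WT, log2) for each gene of 6 lists, filled where the adjusted p was under 0.05, with the 10 members as squares that were not tested and black lines for medians. Of the filled circles 11 belong to the SRF and MRTF list, and the other lists have 0 to 2 each.

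Of 18 TGF-beta ligands, receptors and SMAD genes 15 fell (median -0.54), against 25.3% of all genes. Tgfb2 is also in the YAP and TAZ list. The ligand Tgfb3 at -1.15 and the latent TGF-beta binding protein Ltbp1 at -1.05 were among the genes that fell (limma, adjusted p = 1.93e-09 and 6.98e-11). The receptor Tgfbr2 fell too (adjusted p = 1.92e-10 for the mean response), with responses of -0.87 in WT and -1.13 in D1D2KO cells. Tgfbr3 (-0.10) and Id1 (-0.01) did not pass. Responses differed between the genotypes for 2 of these 18 genes, against 1.46% of all genes. These were Tgfb3 (-0.86, SE 0.16, limma adjusted p = 0.0107) and Ltbp2 (-0.74, SE 0.12, adjusted p = 0.00645). Of 18 receptors of matricellular proteins 14 fell and 1 rose (median -0.58), against 25.3% and 20.6% of all genes. The integrin chains Itga8 (-1.69) and Itga4 (-1.57) fell most, and the gene that rose was Cd36 (4.16), a fatty acid transporter of adipocytes as well as a thrombospondin receptor (adjusted p from 2.26e-16 to 7.30e-13). Cd47 (-0.11) and the syndecan Sdc4 (0.04) did not pass. Among the receptors the response of 1 of 18 differed, against 1.46% of all genes. This was Itga5, the fibronectin receptor chain, with 0.00 in WT and -0.80 in D1D2KO cells (difference -0.81, SE 0.15, limma adjusted p = 0.0135). Before differentiation its fitted D1D2KO minus WT difference was already -0.64.

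**Figure D4:**
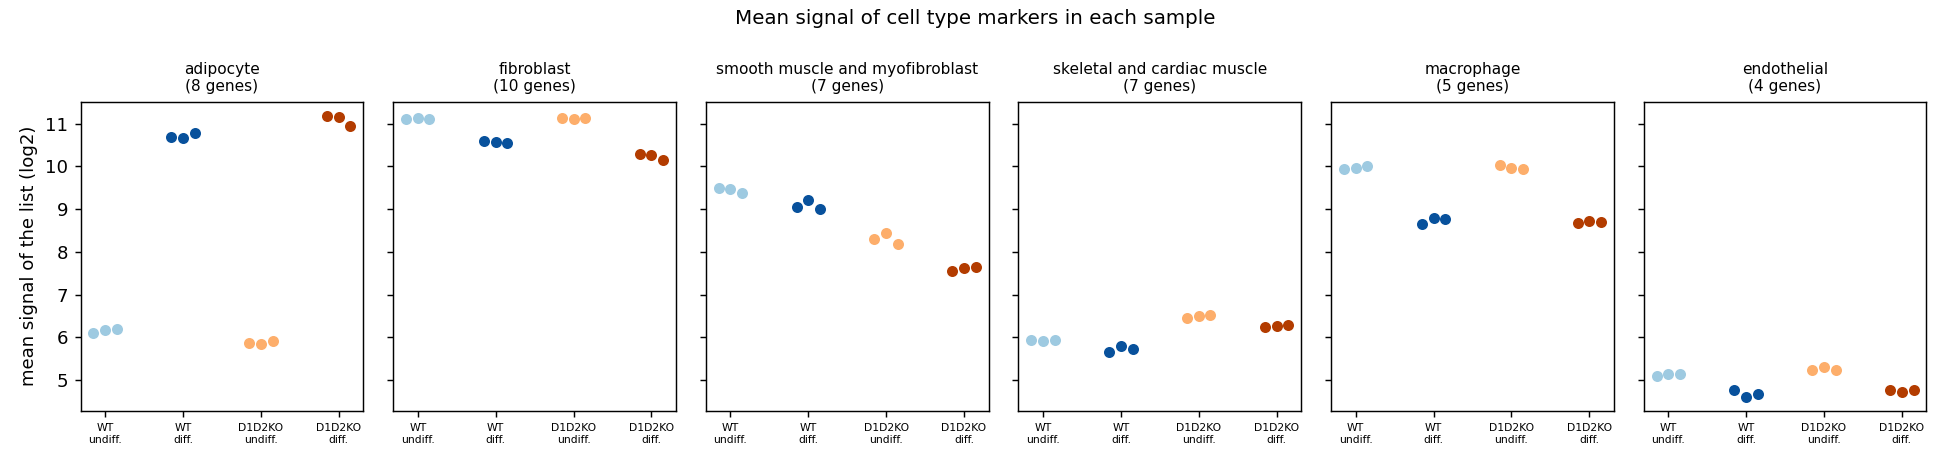
Mean log2 signal of 6 marker lists in each of the 12 samples, a point a sample. Adipocyte markers are higher in the differentiated samples of both genotypes, smooth muscle markers are lower in D1D2KO samples in both states, and macrophage markers lie between 8.66 and 8.79 in all 6 differentiated samples.

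The 5 macrophage markers averaged 9.95 to 10.02 in WT and 9.95 to 10.03 in D1D2KO undifferentiated samples, and 8.66 to 8.79 and 8.66 to 8.73 in differentiated ones. Their part in the members' signals was not tested. The 4 endothelial markers averaged 5.09 to 5.15 in WT and 5.24 to 5.31 in D1D2KO undifferentiated samples, and 4.61 to 4.76 and 4.73 to 4.77 in differentiated ones. Neural and glial markers (3 of 4 measured) averaged 6.72 to 6.93 in WT and 6.85 to 6.94 in D1D2KO samples before differentiation. After it they averaged 5.74 to 6.03 and 5.88 to 5.94. Bone and cartilage markers (4 of 6 measured) averaged 5.45 to 5.84 over all samples.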

How the data were processed

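Total RNA of the 12 samples was biotin-labelled and hybridised to a single-colour mouse array, per the labels. The authors deposited 1 table of 35556 probe sets with values between 1.15 and 14.17, taken as log2 signals because of their range. The authors' summary and normalization of the scans, and detection calls, were not given in the sources used here, and low signals cannot be told from background. Titles gave each sample's group and number. Probe sets with 1 gene in the platform annotation (21789) were kept, and a gene with several was read by its brightest on average, which gave 19938 genes. No low signals were removed.

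The 4 group means were fitted to all 12 samples with limma 3.58.1 in R 4.3.3 (lmFit, eBayes), two-sided, and the call threshold was 0.05 after Benjamini-Hochberg adjustment across the genes. The script was tested on simulated data. The members and lists were chosen with earlier results of these data known. Named genes were Dgat1, Dgat2, the members, the 5 nearest profiles of each picked gene and, per list and for the mean response and the difference between responses, up to 3 called genes with the largest change and 2 uncalled genes with the highest signal. Samples with the same number gave correlations of deviations above 0.1 in every pair only between the D1D2KO states (0.101 to 0.176). The main fit did not pair samples, and the numbers entered only the replicate blocks among the alternatives. Alternatives were array centring, quantile normalization, a signal filter, other probe set rules, other variance estimates, only the groups compared, replicate blocks and leaving out each sample. Promoters came from a RefSeq table on GRCm38.p6.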

Additional observations from a re-analysis of the deposited data

Results flagged for a closer look

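Among the genes of the pathway lists named here, 10 passed the test of the difference between the 2 genotypes' responses, all more negative in D1D2KO cells. At most 3 called genes a list were named for this contrast, so that count follows from the naming. The full lists had 11 calls of 21 for SRF and MRTF targets and 0 to 2 calls in each other list. Of all genes 0.712% were called lower. Dgat2 passed as well, with a difference of -1.20 (limma, adjusted p = 0.00271). The SRF and MRTF targets named were Actg2 at -0.90, Myl9 at -0.88 and Tpm1 at -0.79. Among TGF-beta genes they were Tgfb3 at -0.86 and Ltbp2 at -0.74, and among receptors Itga5 at -0.81. The matricellular genes were Edil3 at -0.70 and Fbln2 at -0.61, and the YAP and TAZ targets Crim1 at -0.62 and Axl at -0.52. In Itga5 and Actg2 the WT responses were 0.00 and -0.08, so nearly the whole difference between responses was the D1D2KO response (-0.80 and -0.98). Both genes were already lower in D1D2KO than in WT cells before differentiation, by fitted differences of -0.64 and -1.48. In the other 8 named genes of the lists the fitted response was negative in both genotypes, from -0.19 (Ltbp2) to -1.01 (Myl9) in WT cells.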

How the results depend on the processing

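No member changed the sign of a called difference under the alternatives run. The count of members called lower was 10 in the mean differentiation response, 6 of 7 in WT and 7 of 7 in D1D2KO differentiation under every alternative, and the median difference between responses ran from -0.56 to -0.41. The mean genotype difference was called in 7 to 9 of 10 members when a sample was left out and in 6 after quantile normalization, as given above. In differentiated cells 5 of 7 were called after quantile normalization and 4 when only the 2 groups compared were fitted, and 5 to 6 of 7 were called there when a sample was left out. The SRF and MRTF count in the difference between responses, followed after it was seen, ran from 7 to 11 when a sample was left out. With the replicate number as a block over all samples the counts of members were 10, 9, 6, 7, 0 and 6 in the 6 tested comparisons, as without it, and the replicate block within genotype or state changed no call of a member. Centring shifted the median of all genes by at most 0.04 in size. The number of arrays limits small differences.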
